A study of Glycine max with 4 samples.

Results

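The genes described here are the 129 soybean genes whose messenger RNA in each library of the line Ri exceeded 2 times that in each wild-type library, out of 33620 genes with a mean of at least 1 CPM (estimated fragments as a share of the library total, times 1000000) and 47973 genes listed in at least 1 library. They were chosen on these very values: the smaller of the Ri values had to exceed 2 times the larger of the WT values, and genes at 0 in both WT libraries were admitted. The direction and the minimum size of the difference were therefore fixed by the choice, and the levels below are a description without a test. The 129 genes are 0.384% of the 33620.

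Soybean (Glycine max) roots were sequenced in 4 libraries. The Ri libraries, replicates 1 and 2, are labelled as a transgenic line with suppression of GmHAD1-2, and the WT libraries, replicates 1 and 2, came from wild-type plants. All plants stood for 12 days in nutrient solution with KH2PO4, at a concentration that the design text gives as 250 mM (a unit in doubt, since nutrient solutions usually hold far less phosphate). The replicates are described there as biological. The number of plants per library, the number of independent transgenic lines, the construct and the age and batch of the plants are not analysed here, as no source states them.

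GmHAD1-2 is named after the haloacid dehalogenase superfamily, a large family of enzymes that includes many phosphatases, which release inorganic phosphate from organic compounds. Roots take up phosphate through membrane transporters, and plants adjust acid phosphatases and transporters to the phosphate supply. Soybean descends from an ancient polyploid and carries many of its genes in closely similar copies, so that a sequenced fragment can match more than 1 gene. A gene that makes several transcripts by alternative splicing is counted here as 1 gene.

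None of the 129 identifiers could be tied to a gene name. The identifiers belong to the Wm82.a2.v1 annotation of the cultivar Williams 82, and 0 of the 47973 matched the reference table of 59048 RefSeq genes (Glycine_max_v4.0), in their deposited form or rewritten without suffix or separators. Functions, product classes, markers of root or other cell types, promoters and proteins of these genes are therefore not analysed here, and neither is GmHAD1-2 itself, so that its suppression rests on the labels. The identifiers of 2 genes are printed, and the others are given by chromosome, which the identifier carries, and by deposited length.

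The libraries held 10077854 and 11070260 expected counts in Ri replicates 1 and 2, and 10713625 and 10686759 in WT replicates 1 and 2. At this depth 3 counts, taken as the floor of a library, correspond to 0.271 to 0.298 CPM. In bulk RNA, fewer cells of a type and less RNA per cell cannot be told apart.

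Summed over the 129 genes, expression was 1131 CPM in Ri replicate 1 and 967 CPM in Ri replicate 2, against 268 CPM in WT replicate 1 and 276 CPM in WT replicate 2. Most of the genes were weakly expressed in every library. Their median level per length was 2.41 and 2.50 FPKM (fragments scaled by length and depth, as deposited) in Ri replicates 1 and 2, against 0.480 and 0.580 FPKM in WT replicates 1 and 2. For all 33620 genes the medians were 6.17 and 6.68 FPKM in Ri and 6.66 and 6.28 FPKM in WT. In the Ri libraries the 129 genes thus lay below the typical root gene, and in WT many lay near the limit of counting. In WT replicates 1 and 2, 24 and 20 of them had fewer than 3 counts, and 17 did so in both.

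**Figure D1:**
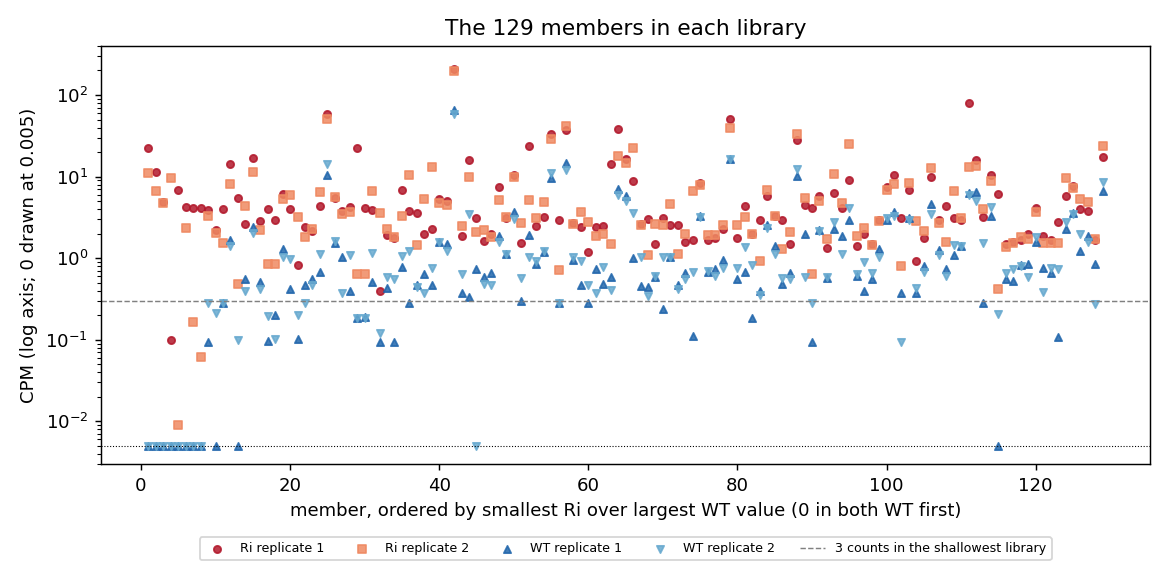
CPM on a log axis (values of 0 drawn at 0.005) of the 129 genes in Ri replicates 1 and 2 and WT replicates 1 and 2, with 1 position per gene, ordered from the largest to the smallest ratio of the lower Ri to the higher WT value and with genes at 0 in both WT libraries first. The dashed line marks 3 counts in the library of lowest total. Most Ri points lie between 1 and 10 CPM and most WT points between the dashed line and 2 CPM.

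The median log2 difference between the mean Ri and the mean WT level (in CPM) was 1.97, a 3.91-fold difference, with genes at 0 in WT set at 3 counts per WT library. The median over all 33620 genes was 0.03. For the 121 genes with a WT count, the ratio of the lower Ri to the higher WT value had a median of 2.46, only a little above the 2-fold limit. It exceeded 3 in 34 genes, 4 in 13 genes and 5 in 3 genes, up to 11.6. Each of the 3 genes above 5 had no more than 3 counts in either WT library. The gene at 11.6 had 1 and 3 counts in WT replicates 1 and 2, so these largest ratios rest on very few WT counts. Just inside the limit lay genes at ratios of 2.01, 2.01 and 2.02, and just outside it genes at 1.98, 1.97 and 1.96. The gene of chromosome 2 at 1.96 had 162 and 61.3 CPM in Ri replicates 1 and 2, against 27.7 and 31.2 CPM in WT replicates 1 and 2, so a well-covered gene also stands directly below the limit.

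Counting error alone spans the limit for many of the genes. The exact 95% binomial interval of the ratio of the lower Ri to the higher WT count had a lower bound above 1 in 88 of the 129 genes and above 2 in 16. Intervals and floors cover counting error only and take no account of differences between plants. The choice had already set this same ratio above 2. The numbers of genes past a bound are therefore a description and lend the members no support.

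The gene with the most counts, on chromosome 16 and 936 bases long, had 211 and 197 CPM in Ri replicates 1 and 2, against 65.4 and 58.9 CPM in WT replicates 1 and 2. Its mean was 204 CPM ± 9.80 in Ri and 62.2 CPM ± 4.61 in WT (SD, n = 2 each), a 3.28-fold difference. The replicates of each genotype lay close together and far from those of the other genotype. A second gene of chromosome 16, with 2 listed transcripts, had 58.3 and 51.6 CPM in Ri replicates 1 and 2, against 10.5 and 14.1 CPM in WT replicates 1 and 2. It was 4.46-fold higher in Ri by the means, and the exact 95% counting interval of its lower Ri over its higher WT value ran from 3.05 to 4.40. These 2 genes made up 23.8% and 25.7% of the summed CPM of the 129 genes in Ri replicates 1 and 2, against 28.4% and 26.5% in WT replicates 1 and 2.

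The gene with the third highest mean CPM in Ri differed from both. This gene of chromosome 1, 533 bases long, had 81.0 CPM in Ri replicate 1 and 13.2 CPM in Ri replicate 2, against 6.23 and 5.98 CPM in WT replicates 1 and 2. The mean of 47.1 CPM in Ri therefore carries an SD of 48.0 (n = 2), and only Ri replicate 1 stands far from WT. Next came a gene of chromosome 10, 231 bases long, with 50.7 and 39.8 CPM in Ri replicates 1 and 2, against 16.6 and 16.7 CPM in WT replicates 1 and 2. A gene of chromosome 13, 2780 bases long, had 37.3 and 42.1 CPM in Ri replicates 1 and 2, against 14.6 and 12.0 CPM in WT replicates 1 and 2. Both showed differences of about the same size in each Ri library.

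A gene of chromosome 14, 472 bases long, had 32.9 and 29.0 CPM in Ri replicates 1 and 2, against 9.52 and 11.1 CPM in WT replicates 1 and 2. All its expected counts were whole numbers, which was the case for 1 of the 12 genes with the highest mean CPM in Ri, so that no division of fragments among similar genes shows in its values. A second gene of chromosome 1, 293 bases long, had 28.2 and 33.4 CPM in Ri replicates 1 and 2, against 10.2 and 12.5 CPM in WT replicates 1 and 2. Among the 12, the Ri replicates lay within 2-fold of each other in 7. The remaining 5 include a gene of chromosome 17 with 9.13 and 25.4 CPM in Ri replicates 1 and 2, against 2.97 and 4.12 CPM in WT replicates 1 and 2, where Ri replicate 2 was the higher one.

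**Figure D2:**
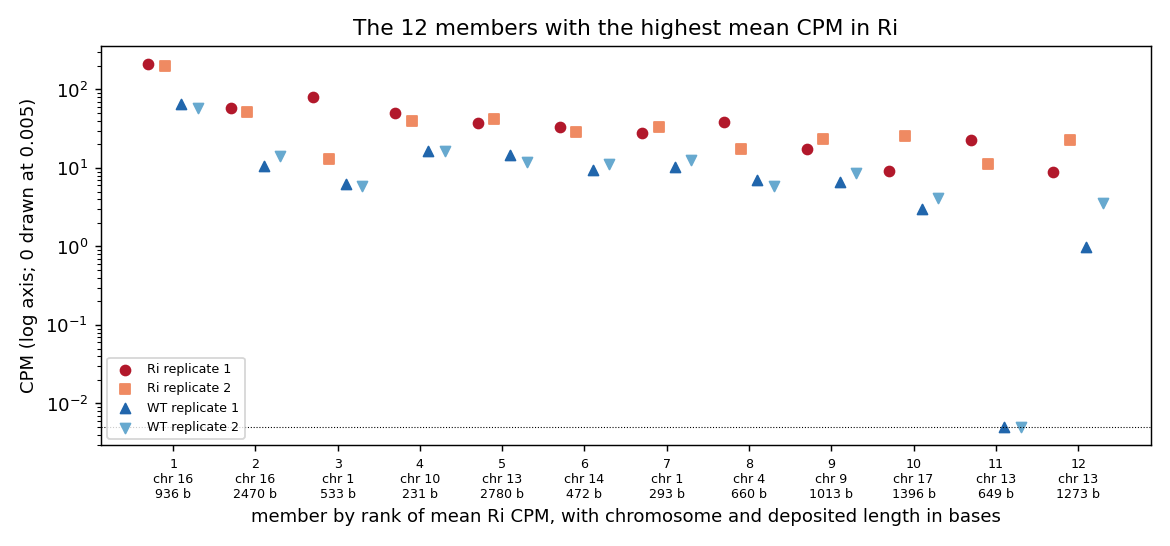
CPM on a log axis (0 drawn at 0.005) of the 12 genes with the highest mean CPM in Ri, with 1 symbol per library, and the chromosome and deposited length in bases under each rank. The Ri symbols lie close together for ranks 1 and 2 and far apart for rank 3 (81.0 and 13.2 CPM), and rank 11 was at 0 in both WT libraries.

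Per length the order was different. The highest mean FPKM in Ri belonged to the 231-base gene of chromosome 10, with 255 and 200 FPKM in Ri replicates 1 and 2, against 83.2 and 83.7 FPKM in WT replicates 1 and 2. The 936-base gene of chromosome 16 followed with 229 and 214 FPKM in Ri replicates 1 and 2, against 71.1 and 64.0 FPKM in WT replicates 1 and 2. Between these 2 genes, the means of 227 and 221 FPKM in Ri differ by less than the spread between the Ri replicates. Of the 9 genes with a mean of at least 50 FPKM in Ri, 7 were shorter than 500 bases. As FPKM divides by length, a list by FPKM leans to short genes, and the share over all genes is not given. Among the 7, a 123-base gene of chromosome 12 had 256 and 7.14 FPKM in Ri replicates 1 and 2. Its place thus rests on Ri replicate 1.

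A group of 8 genes had no count in either WT library and reached the mean of 1 CPM through their Ri values alone. The share of such genes among all 33620 is not given. Of the 8, 4 had at least 3 counts in both Ri libraries and 4 had fewer than 3 in 1 Ri library. Among the 8, the highest mean CPM in Ri was that of Glyma.13G012100.Wm82.a2.v1, a gene of chromosome 13 with 1 listed transcript of 649 bases. It had 226.62 and 123.58 expected counts in Ri replicates 1 and 2, which is 22.5 and 11.2 CPM, against 0 in both WT libraries. In Ri it averaged 16.8 CPM ± 8.01 (SD, n = 2), and this mean was 60.0-fold the level that 3 counts in each WT library would give.

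Glyma.18G227000.Wm82.a2.v1, on chromosome 18 with 1 transcript of 3624 bases, had 113.29 and 74.43 expected counts in Ri replicates 1 and 2, or 11.2 and 6.72 CPM, against 0 in both WT libraries. In Ri it averaged 8.98 CPM ± 3.19 (SD, n = 2), and this mean was 32.0-fold the level that 3 counts in each WT library would give. The ratios of Ri replicate 1 to Ri replicate 2 were 2.01 and 1.67, so the first gene lay just past 2-fold. Expected counts of both genes were fractional, as arise when fragments are divided among similar genes. A pair of genes on chromosome 2 completed the 4. The first had 4.92 and 4.74 CPM in Ri replicates 1 and 2, and the second had 4.26 and 2.35 CPM, against 0 in both WT libraries for each.

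In the other 4 genes the signal came from 1 Ri library. A gene of chromosome 7 had 105 counts in Ri replicate 2 and 1 in Ri replicate 1. A gene of chromosome 2 had 41.97 counts in Ri replicate 1 and 1.83 in Ri replicate 2, and a gene of chromosome 12 had 41.00 and 0.68. A gene on an unplaced sequence had 69.73 and 0.10. With WT at 0 any value above 0 met the rule, so these 4 genes belong to the 129 although 1 of their Ri libraries lay under the floor.

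The Ri libraries agreed for most but not all of the 129 genes. In 92 genes they lay within 2-fold of each other, and in 47 within 1.2-fold. Ri replicate 1 was more than 2-fold above Ri replicate 2 in 25 genes, and Ri replicate 2 was more than 2-fold above Ri replicate 1 in 12. With 0.5 CPM added to each value, the Ri replicates were more than 2-fold apart in 24.0% of the 129 genes, against 10.2% of all 33620 genes. The WT replicates were more than 2-fold apart in 6.20% of the 129 genes, against 2.39% of all genes. The typical spread was nearly the same in both sets. The median absolute log2 difference between the Ri replicates was 0.336 in the 129 genes, against 0.326 in all genes. Between the WT replicates it was 0.221, against 0.211. The 2 sets were not matched for CPM, and the 0.5 CPM added narrows differences more in weakly expressed genes. The rule also used these same replicate values, so the comparison of spreads is a description only.

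The 25 genes that leaned on Ri replicate 1 had a median of 4.17 CPM there and 0.920 CPM in Ri replicate 2, against 0.280 and 0.281 CPM in WT replicates 1 and 2, which is about the floor. The 12 genes that leaned on Ri replicate 2 had a median of 1.82 CPM in Ri replicate 1 and 6.73 CPM in Ri replicate 2, against 0.327 and 0.575 CPM in WT replicates 1 and 2. The 92 genes with similar Ri values had medians of 3.21 and 3.39 CPM in Ri replicates 1 and 2, against 0.827 and 1.03 CPM in WT replicates 1 and 2. Counting bounds above 1 were found in 74 of these 92 genes, in 7 of the 25 and in 7 of the 12.

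**Figure D3:**
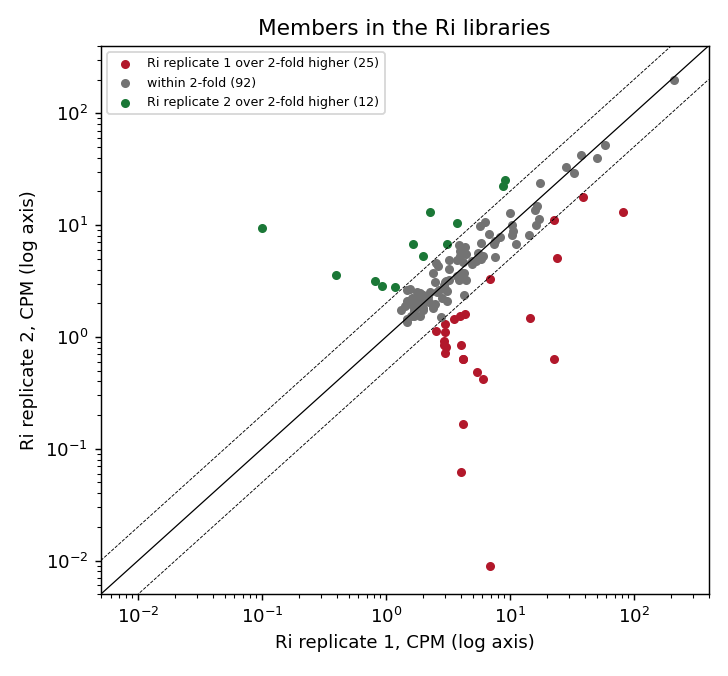
CPM of each of the 129 genes in Ri replicate 1 and Ri replicate 2, both on log axes, with the line of equality and dashed lines at 2-fold. The 92 grey genes lie within 2-fold, 25 genes lie below the band (higher in Ri replicate 1) and 12 above it (higher in Ri replicate 2).

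The most uneven gene with a count in WT was 1 of chromosome 12, only 123 bases long. It had 228 and 7 counts in Ri replicates 1 and 2, or 22.6 and 0.632 CPM, against 0.187 CPM in each WT library. A gene of chromosome 11, 2072 bases long, leaned the other way, with 2.28 and 13.0 CPM in Ri replicates 1 and 2, against 0.467 and 0.749 CPM in WT replicates 1 and 2. Its counts were whole in all 4 libraries. In both genes the Ri values lay above the WT values, as the choice required, but the size of the difference depends on which Ri library is read.

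Gene length was not used in the choice, and short genes made up a larger share of the 129 than of all genes, though not at the lowest counts. Under 500 bases were 18 of them (14.0%), against 672 of all 33620 genes (2.00%). Under 300 bases were 8 (6.20%), against 240 (0.714%). The median length was 1470 bases against 1768 bases. Set beside genes of similar CPM (mean of the 4 libraries), the share depended on the class. At 1 to 2 CPM, which holds 64 of the members, 4 were under 500 bases, against 7.70% of all genes there, so short genes were not in excess. At 2 to 4 CPM 5 of 31 members were that short, against 3.86% of all genes. At 4 to 8 CPM it was 5 of 18, against 1.81%. At 8 to 16 CPM it was 1 of 8, against 1.03%, and at 16 CPM and over 3 of 8, against 0.485%. Of the 18 short members, 13 had Ri replicates within 2-fold.

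The 18 short members summed to 236 and 164 CPM in Ri replicates 1 and 2, against 53.6 and 57.1 CPM in WT replicates 1 and 2. All other genes under 500 bases with a mean of at least 1 CPM summed to 6236 and 6445 CPM in Ri replicates 1 and 2, against 5653 and 5337 CPM in WT replicates 1 and 2. Median differences varied with length across all genes, but not steadily. In genes of 3000 bases and over, the median log2 difference from the WT mean, with 0.5 CPM added, was -0.13 in Ri replicate 1 and -0.14 in Ri replicate 2. In genes under 200 bases it was 0.32 and 0.10, over 62 genes. It was 0.03 and 0.05 at 200 to 300 bases, and 0.07 and 0.24 at 500 to 1000 bases. The WT replicates also differed by class. Replicate 1 minus replicate 2 had a median of 0.11 at 500 to 1000 bases and -0.01 at 3000 bases and over. Both Ri values lay above both WT values in 35.5% of the 62 genes under 200 bases, against 18.2% of all genes. The share was 22.5% at 200 to 300 bases, 27.5% at 300 to 500 and 28.3% at 500 to 1000. It was 21.0% at 1000 to 2000 bases, 13.5% at 2000 to 3000 and 6.84% at 3000 and over. The part of this variation with length in the number of short members was not tested. With the median of each length class set to 0 in each library, 122 genes met the rule, 114 of them among the 129.

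Short genes also passed 2-fold in the other direction. The same rule reversed gave 363 genes lower in Ri, 1.08% of the 33620, and 20 of these (5.51%) were under 500 bases. Genes higher in Ri made up 4.84%, 2.81% and 2.31% of the genes under 200, from 200 to 300 and from 300 to 500 bases, and genes lower in Ri made up 1.61%, 2.25% and 3.47%. From 500 bases on, the shares of genes higher in Ri were 0.388% or less in every length class, and those of genes lower in Ri were larger in each of them.

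**Figure D4:**
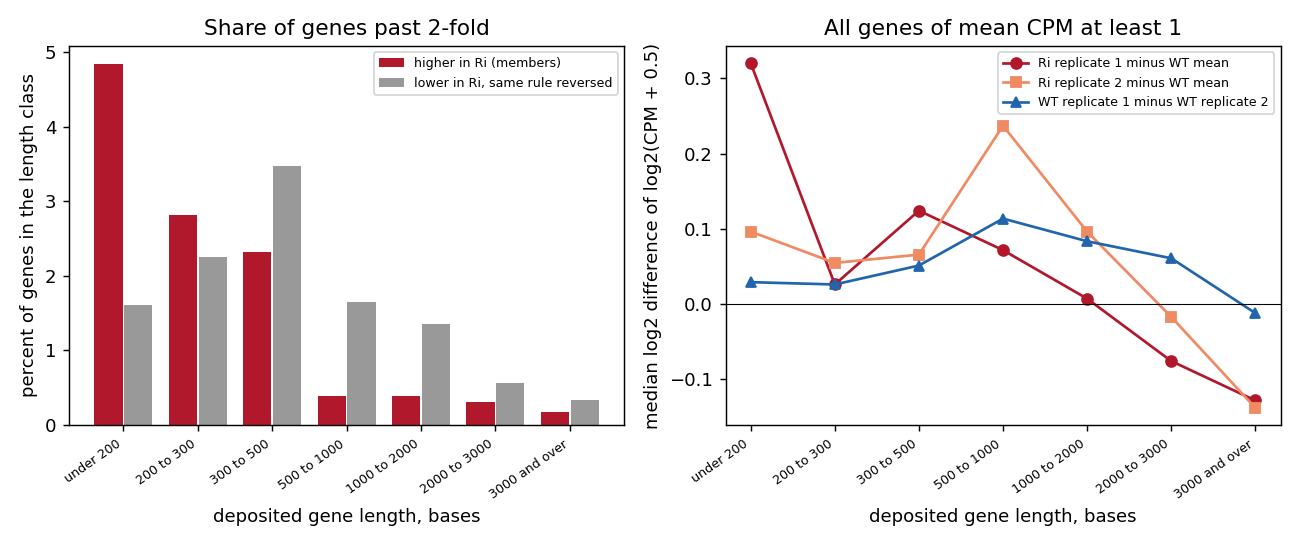
Left, percent of genes in each class of deposited length (bases) that were over 2-fold higher in both Ri libraries (the 129 genes) or over 2-fold lower by the reversed rule. Right, median log2 difference of log2(CPM + 0.5) in each class over all 33620 genes, for each Ri library from the WT mean and between the WT replicates. The share of genes higher in Ri falls from 4.84% under 200 bases to 0.179% at 3000 bases and over.

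The share of genes that met the rule was larger where counts were low. It was 1.82% of genes with a mean of 1 to 2 CPM (64 genes), 0.721% at 2 to 4 CPM (31 genes), 0.323% at 4 to 8 CPM (18 genes), 0.121% at 8 to 16 CPM (8 genes) and 0.0588% at 16 CPM and over (8 genes). Depth thus moves with membership, and its part was not tested. A single listed transcript was given for 94 of the 129 genes (72.9%), against 61.4% of all genes and 75.1% of genes with a mean of 1 to 2 CPM. Expected counts were whole in every library (within 0.005) for 26 of the 129 (20.2%), against 13.0% of all genes and 27.4% of those at 1 to 2 CPM. The other 103 members have fractional counts, as arise when fragments are divided among similar genes, and their values are uncertain to that extent.

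Several listed transcripts were given for 35 members, and 34 of these were listed in all 4 libraries. For such genes the deposited length varies between libraries with the mix of transcripts, whereas it was fixed in every gene with 1 transcript. The second gene of chromosome 16 described above had lengths of 2333 and 2366 bases in Ri replicates 1 and 2, against 2781 and 2574 bases in WT replicates 1 and 2, without overlap. A gene of chromosome 2 with 6 transcripts and whole counts had lengths of 2173 and 2050 bases in Ri replicates 1 and 2, against 2025 bases in both WT libraries. Over the 34 genes, 8 were longer and 3 shorter in Ri without overlap, and 23 overlapped. Among all 12952 such genes with a mean of at least 1 CPM, 15.0% were longer and 19.3% shorter, so non-overlap of length is common.

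The 129 genes were spread over the genome. They lay on all 20 chromosomes, and 2 lay on unplaced sequences. Chromosomes 12 and 13 carried 10 each, and chromosome 3 carried 1. Of the genes with a mean of at least 1 CPM, that is 0.701% on chromosome 12, 0.423% on chromosome 13 and 0.0651% on chromosome 3. The share was 0.985% on unplaced sequences and 0.384% over all 33620 genes. Neighbours were few: 2 pairs lay within 10 identifiers of each other, both on chromosome 17. The closer pair had 1 listed gene between them. Its members had 1.61 and 2.23 CPM, and 2.38 and 3.70 CPM, in Ri replicates 1 and 2, against 0.582 and 0.476 CPM, and 0.467 and 0.936 CPM, in WT replicates 1 and 2.

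The contrast of Ri with WT (n = 2 libraries each) was also fitted over all genes. In edgeR's quasi-likelihood test, at a Benjamini-Hochberg adjusted p under 0.05, 0 of the 112 members that passed its filter on low counts were called higher in Ri, and 0 of all 34151 genes were (0%). At an unadjusted p under 0.05 these numbers were 109 of the 112 members and 818 of all genes (2.4%). In the 17 members outside the fit the Ri libraries were more than 2-fold apart, with Ri replicate 1 the higher in 13 and Ri replicate 2 in 4. DESeq2 called 23 of the 129 members, among 36 genes higher in Ri of 35838 tested (0.1%). Of these 23, 15 had Ri replicates within 2-fold, 6 were under 500 bases and 4 had whole counts. Since the members were picked from the same contrast, these counts are a description and lend the members no support.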

How the data were processed

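Per the labels' protocols, root RNA was extracted with Trizol and sequenced with a BGI RNA-Seq kit. The submitters' processing notes name RSEM, HISAT and Bowtie2 without roles, versions or settings, and whether strand was used is not stated. Each library has its own deposited table, which per the file headers holds expected counts (estimated fragments per gene, not normalized, not always whole), FPKM values (scaled by the authors to length and depth) and a gene length. Unlisted genes were taken as 0.

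From the deposited expected counts, CPM was computed as count over library total, and members were found by the rule given above. Members and lists were chosen with earlier results of these data known. The printed identifiers are the 2 with the highest ratio of the lower Ri to the higher WT value and at least 5 CPM in Ri, genes at 0 in WT first. Genes otherwise described are those with the highest Ri values, at 0 in WT, nearest the limit, neighbouring, or among the 3 with the most uneven Ri replicates in each direction. The chromosome 2 gene with 6 transcripts was picked after its values were seen. Classes by product name were void, since no identifier matched.

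Fits used edgeR 4.0.16 (rounded counts, TMM, default filter, robust estimation, genotype only) in R 4.3.3, with DESeq2 1.42.0 and limma 3.58.1 as alternatives. The labels number the replicates without saying whether the numbers pair the samples, and the main fit did not pair them. Replicate 1 minus replicate 2 in Ri and in WT correlated at -0.22 across 34151 genes. With 1 such difference per genotype, this value cannot settle whether the samples were paired. Nothing says which plants a library came from, so the spread between replicates may be partly technical.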

Additional observations from a re-analysis of the deposited data

How the results depend on the processing

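The number of genes that met the rule was 129. It was 124 with TMM library sizes and 126 with DESeq2 size factors (121 of the 129 in each). On FPKM it was 129 (86 of the 129), with the minimum mean of 1 set on FPKM in place of CPM. There 32470 genes passed that minimum, and members could drop out on the mean as well as on the ratio. Among alternatives chosen after seeing the data, the number was 125 with at least 3 counts in each Ri library. It was 88 with a counting bound above 1 and 122 with the median of each length class set to 0 in each library. It was 269, 65 and 16 at a minimum mean of 0.5, 2 and 8 CPM, 453 at 1.5-fold and 21 at 4-fold, and 26 with whole counts only. Leaving out 1 library gave 486 to 1031 genes: 1031 without Ri replicate 1 (95 of the 129), 578 without Ri replicate 2 (108 of the 129), 537 without WT replicate 1 and 486 without WT replicate 2. A rule on fewer libraries is easier to meet, so these numbers grow by construction. The median log2 difference of the 129 was 1.97, and 1.87 on FPKM, where genes at 0 in WT drop out. Leaving out 1 library gave 1.76 to 2.01. Its sign is fixed by the choice. Genes called higher in Ri numbered 0 in edgeR, also with library totals, with a filter of 1 CPM in 2 libraries, in limma-voom and in limma on log2(FPKM + 1). They numbered 1 with DESeq2 size factors in edgeR (1 of the 129), 2 in limma on log2(FPKM + 0.1) (1 of the 129), 14 without a filter (14 of the 129) and 36 in DESeq2 (23 of the 129). Why the tools differ was not tested, and the cause was not tested for any other setting. With the replicate block edgeR called 13 genes (0.0381%, 10 of the 129). A crossed replicate block, added because the correlation of the numbers was negative, gave 5 (0.0146%, 5 of the 129). Leaving out 1 library gave 0 to 1151 calls among all genes and 0 to 63 among the 129, where the single library left is taken to vary as the other genotype does: 1151 and 63 without Ri replicate 1, 634 and 61 without Ri replicate 2, and 0 and 0 without either WT library. For the 2 genes printed by identifier and the others among the 12 of highest mean CPM in Ri, none of 89 log2 differences under alternatives was below 0, as the choice all but fixes. Depth limits genes below about 0.3 CPM, the level of 3 counts.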
